A study of Homo sapiens with 6 samples.

Results

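Grouped KLF5 binding was examined as runs of closely spaced binding regions at single loci in 2 human bronchial epithelial lines, Calu-3 and 16HBE14o-. Overlapping or touching peaks of a list were merged into regions, and neighbouring regions of a chromosome with gaps under 5 kb were joined. Every run of 2 or more regions was kept and is called a chain, and every other region is called single. Chromosomes X and Y were left out. In all, 633 of the 4421 merged autosomal KLF5 regions lay in 277 chains. Calu-3 contributed 195 regions of 1465 in 81 chains, and 16HBE14o- contributed 438 regions of 2956 in 196 chains. The chains were chosen by the positions of the KLF5 peaks alone, so their number, size and spacing are given as a description without a test.

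The chromatin immunoprecipitation sequencing (ChIP-seq) study profiled KLF5 in both lines, and CEBPB in Calu-3 only, with 2 samples for each of the 3 groups. Calu-3 comes from an adenocarcinoma of the lung, whereas 16HBE14o- cells are bronchial epithelial cells that were immortalised. All cells were untreated and were grown in DMEM with 10% serum. A Santa Cruz antibody against KLF5 was used for both 16HBE14o- samples and for 1 Calu-3 sample, and a rabbit antibody from an earlier publication for the remaining Calu-3 sample. Cell line and antibody therefore cannot be told apart in full. Each group was deposited as 1 peak list made from both samples. The values below thus have no error between samples, sequencing depth is unknown, and a region missing from a list is not evidence of absent binding.

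KLF5 is a Krüppel-like zinc finger transcription factor that binds GC-rich and CACCC-type DNA and is known for roles in epithelial proliferation and differentiation, including in the airway. Transcription factors of this kind often occupy several elements around a target gene, at its promoter, in its introns and at enhancers, so that binding regions can lie in groups. CEBPB is a basic leucine zipper factor known for roles in epithelial differentiation and inflammatory gene expression. Positions are on hg19. An annotation and sequence of that build were not used here, so no gene and no motif is assigned to a chain.

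Most chains were short. In Calu-3, 59 chains held 2 regions, 19 held 3, and 1 each held 4, 6 and 10 regions. In 16HBE14o-, 167 chains held 2 regions, 22 held 3, 5 held 4, and 1 each held 7 and 11. Chains of 2 regions thus made up 72.8% of the Calu-3 chains (exact 95% interval 61.8 to 82.1) and 85.2% of the 16HBE14o- chains (79.4 to 89.9). Chains of 4 or more regions were rare in both lists, at 3.70% (0.770 to 10.4) and 3.57% (1.45 to 7.22). All intervals are Clopper-Pearson intervals and cover counting error only. They treat regions as independent, and regions of a chain share a locus, so they may be too narrow for shares over chained regions.

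The extent of a chain was alike in both lists. The median span was 2724 bp in Calu-3, with quartiles of 1239 and 4163 bp and a maximum of 16487 bp. In 16HBE14o- it was 2544 bp, with quartiles of 1440.5 and 4133.25 bp and a maximum of 20373 bp. Called regions covered 53.8 kb of the 251 kb spanned by Calu-3 chains and 159.8 kb of the 607 kb spanned by 16HBE14o- chains. The regions themselves had median widths of 280 bp and 344 bp, the same as single regions of their list. Most chained regions had exactly this width, so the equal medians say nothing about binding. Within chains of 2, the summits lay a median of 1660 bp apart in Calu-3 and 1813 bp apart in 16HBE14o-.

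Short gaps were the most frequent among those up to 10 kb. Between neighbouring Calu-3 regions there were 47 gaps under 1 kb, 24 from 1 to 2 kb and 11 from 4 to 5 kb. The 16HBE14o- list had 97, 45 and 27 gaps in the same classes. Beyond the threshold the counts went on without a step, with 14 Calu-3 gaps and 28 16HBE14o- gaps from 5 to 6 kb. For comparison, the median gap over all neighbouring regions was 432856 bp in Calu-3 and 174342 bp in 16HBE14o-. The limit of 5 kb therefore cut a continuous distribution. The Calu-3 gaps just inside it were 4809 and 4905 bp and those just outside were 5281 and 5354 bp. In 16HBE14o- the corresponding gaps were 4930 and 4947 bp inside and 5120 and 5175 bp outside.

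**Figure D1:**
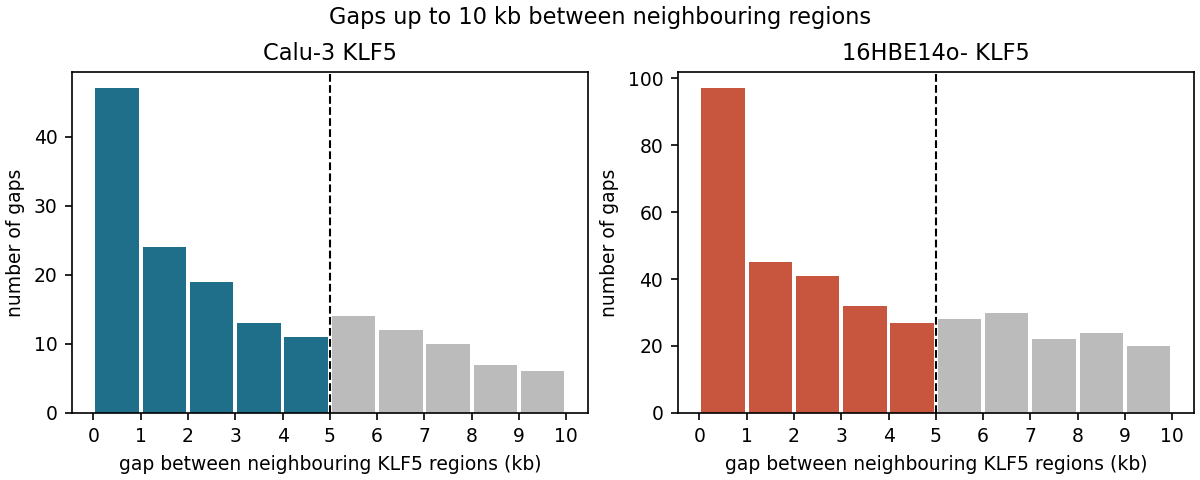
Number of gaps (y axis) between neighbouring KLF5 regions by gap length in classes of 1 kb (x axis), for Calu-3 (left) and 16HBE14o- (right). Coloured bars lie under the 5 kb limit (dashed line) and grey bars beyond it; gaps under 1 kb were the most frequent class, at 47 and 97, and no step is seen at 5 kb.

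The share of regions in chains was similar in the lists as deposited, but not once their lengths were made equal. Chains held 13.3% of Calu-3 regions (11.6 to 15.2) and 14.8% of 16HBE14o- regions (13.6 to 16.1). The 16HBE14o- list was the longer one. With the 16HBE14o- list limited to as many peaks as the Calu-3 list, those of highest signal first, it gave 68 chains holding 9.40% of its regions, against 81 chains in Calu-3. This limit left out the regions of lowest signal, so that length and signal of the list changed together and their parts cannot be told apart.

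Regions of high signal were frequent in chains of both lists. Signal is the authors' value per peak, and is given here as a percentile among the merged autosomal regions of a list, with 100 for the highest. Calu-3 regions in chains had a median percentile of 65.9, compared with 47.9 for single regions. In the top 25% by signal were 76 of the 195 chained Calu-3 regions (39.0%, 32.1 to 46.2), where all regions of the list gave 25.1%. In 16HBE14o- the medians differed little, at 52.1 for chained and 49.8 for single regions, and the former was 42.7 in chains of 3 or more regions and 60.0 in the list limited to the number of Calu-3 peaks. The top 25% held 138 of the 438 chained 16HBE14o- regions (31.5%, 27.2 to 36.1), with 25.0% over all regions. Quartiles of 23.4 and 80.2 in 16HBE14o- chains, against 25.2 and 74.0 in single regions, showed a wider spread of signal among the chained regions. Peak positions and signals come from the same calls, so these values are also a description.

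Paired regions differed in signal about as much as neighbouring single regions did. In chains of 2 the percentiles lay a median of 24.2 points apart in Calu-3 and 29.3 points apart in 16HBE14o-. Between single regions that follow each other along a chromosome, the medians were 27.1 and 28.7 points. Spearman rho between the signals of both regions was 0.18 over 59 Calu-3 chains and 0.15 over 167 16HBE14o- chains, neighbours sharing library and local background. No interval was computed, nor a rho for neighbouring single regions, so no relation is read from these values. A region of the top 25% was present in 51 of the 81 Calu-3 chains (63.0%, 51.5 to 73.4) and in 111 of the 196 16HBE14o- chains (56.6%, 49.4 to 63.7). Chains with every region above the list's median were fewer than these, at 33 in Calu-3 (40.7%, 29.9 to 52.2) and 56 in 16HBE14o- (28.6%, 22.4 to 35.4). Both kinds of share depend on the number of regions in a chain. They were not computed for pairs of neighbouring single regions, so no excess or lack is read from them.

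The longest Calu-3 chain, by span and by number of regions, lay on chromosome 8 at 145010724 to 145027210 and held 10 regions. Its 3 strongest regions stood together near the lower coordinate. They began at 145010724 (percentile 99.3), 145013774 (99.6) and 145014509 (99.8, signal 112). All 3 were overlapped by 16HBE14o- regions, at percentiles of 97.6, 63.9 and 45.4 of that list in the same order. The remaining Calu-3 regions were of mixed signal. Those starting at 145015687, 145017325 and 145018188 were at percentiles 71.3, 69.2 and 35.8, and the weakest, at 145016232, was at 5.87. Signal was again high at 145022667 (95.4) and 145025886 (89.6), before a last region at 145026931 (72.7). Of these 7, only the region at 145022667 had a 16HBE14o- region over it, at percentile 63.9, and that one stood outside the 16HBE14o- chain.

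In 16HBE14o- the same locus held a chain of 4 regions from 145008084 to 145014882. The first of them, at 145008084 (percentile 28.0), lay beyond the end of the Calu-3 chain. At the 3 sites in common, the site with the lowest coordinate had the highest signal of the chain in 16HBE14o- (97.6), whereas in Calu-3 the ranks of these sites differed by little (99.3 to 99.8). CEBPB overlapped 1 of the 10 Calu-3 regions, the one at 145013774, by a CEBPB peak of percentile 54.1.

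The Calu-3 chain with the next most regions, 6 in a span of 7300 bp, lay on chromosome 3 at 193852227 to 193859526 and contained the highest KLF5 region of the Calu-3 list. That region, at 193852569 to 193852984, had a signal of 240 and stood beside a narrow region of 74 bp at 193852227 (percentile 96.0). A region at 193853697 to 193853880 (signal 176, percentile 99.9) followed. Further along, the regions at 193855439, 193858525 and 193859441 were at percentiles 82.3, 43.8 and 97.1. Only the region at 193853697 was shared with 16HBE14o-, by a single region of percentile 24.1. CEBPB peaks overlapped the highest region, at CEBPB percentile 42.6, and the region at 193855439, at 71.6. At this locus the Calu-3 chain thus met 1 low-ranked 16HBE14o- region.

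Nearby on chromosome 3, 2 further Calu-3 chains were among those whose weakest region ranked highest. A compact chain at 193720896 to 193721597 spanned 702 bp, and its regions were at percentiles 99.5 and 99.2. The other chain, at 193587568 to 193590398, had percentiles of 90.6 and 98.1. Neither had a 16HBE14o- KLF5 region within 5 kb. A CEBPB peak of percentile 97.9 lay over the region at 193721528.

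The longest chain of all, again by both measures, was a 16HBE14o- chain of 11 regions on chromosome 20 at 60925021 to 60945393. Signal within it ran from percentile 99.2, at 60936904, to 0.372, at 60941507. Strong regions were spaced along its whole length, at 60925021 (97.7), 60934428 (96.9), 60936904 (99.2), 60942357 (90.7) and 60945050 (95.1). Between them lay weak regions, among them 60930270 (6.50), 60933400 (5.58) and 60925435 (14.01). The Calu-3 list had a chain of 4 regions inside this span, from 60932238 to 60937126. Its strongest region, at 60936996 (percentile 98.7), overlapped the strongest 16HBE14o- region, with summits 6 bp apart. The regions at 60934561 and 60932238 were also shared, at percentiles 96.8 and 68.9 in Calu-3 against 96.9 and 37.9 in 16HBE14o-. Beyond the Calu-3 chain, the first 16HBE14o- region, at 60925021, overlapped a Calu-3 region of percentile 89.1, while the strong regions at 60942357 and 60945050 had none. CEBPB peaks lay at 4 of the 11 regions.

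A second long 16HBE14o- chain on chromosome 20 lay at 62165378 to 62177666, with 7 regions. Its strongest regions were at 62176552 (percentile 94.8), 62165378 (84.6) and 62168616 (75.8). Calu-3 had 2 regions there, at 62165342 (97.2) and 62170106 (13.0), over 16HBE14o- regions of percentiles 84.6 and 57.2.
The strongest 16HBE14o- region of the chain had no Calu-3 counterpart. No region of either chain had a CEBPB peak.

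Chains of both lines met at 11 loci, which were 13.6% of the Calu-3 chains (6.98 to 23.0) and 5.61% of the 16HBE14o- chains (2.83 to 9.82). Besides the loci on chromosomes 8 and 20 already described, they lay on chromosome 1 (3 loci), on chromosomes 12, 17 and 19, and at 2 more loci on chromosome 20. The 11 loci held 33 Calu-3 and 41 16HBE14o- regions, of which 21 in each list overlapped a region of the other chain. Every region matched at only 2 loci. The strongest regions of both chains overlapped at 4 loci, with a median of 6 bp between their summits. At the other 7 loci the region ranked strongest was at different sites in the lines. Some of these ranks lay close, as on chromosome 20 at 34673752, with percentiles of 37.0 and 34.2 in Calu-3 and 86.7 and 89.3 in 16HBE14o-. Without an error between samples, small differences in rank are not read as a change of the leading site. No region of either chain had a CEBPB peak at 6 of the 11 loci.

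Both loci with a complete match held 2 regions in each line. The order of signal was the same in both lines on chromosome 1 but not on chromosome 20, where the percentiles lay close within each line. On chromosome 1 at 201987616 to 201992513, the stronger region of both lines was the first, with summits 0 bp apart. Its percentile was 98.4 in Calu-3 and 84.0 in 16HBE14o-, and that of the other was 48.1 and 43.2. On chromosome 20 at 34673752 to 34675029, the Calu-3 regions were both of low rank, at percentiles 37.0 and 34.2. The 16HBE14o- regions over them were at 86.7 and 89.3, which placed this chain among the 6 of its list whose weakest region ranked highest.

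The other joint loci showed partial matches. On chromosome 12 at 52537425 to 52542704, Calu-3 had 3 regions at percentiles 83.7, 96.7 and 55.4, and 16HBE14o- had the first pair of them at 98.6 and 96.7. This was the 16HBE14o- chain with the highest weakest region. Chromosome 17 at 39807791 to 39812262 held 3 16HBE14o- regions at percentiles 71.8, 98.2 and 59.5, with Calu-3 regions at 81.1 and 71.5 over the first pair. The strongest region was therefore the first in Calu-3 and the middle one in 16HBE14o-. On chromosome 19 at 39893216 to 39900483, percentiles were 21.7, 50.9 and 34.1 in 16HBE14o-, with Calu-3 regions at 61.2 and 83.5 over the last 2 of them.

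At 3 loci only 1 region of each chain matched. On chromosome 1 at 33225055 to 33226021 the shared region was the strongest in both lines, at 95.7 in Calu-3 and at 87.3 in 16HBE14o-, and the chains extended from it in opposite directions. The locus on chromosome 20 at 49294840 to 49297351 had the same layout, with the shared region at 96.9 and 92.2. There the shared region carried a CEBPB peak of percentile 0.362, while the Calu-3 region at 49297072 that 16HBE14o- lacked carried one of percentile 99.7. On chromosome 1 at 151964996 to 151966899, the shared region was the stronger in Calu-3 (83.8) and the weaker in 16HBE14o- (59.7).

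**Figure D2:**
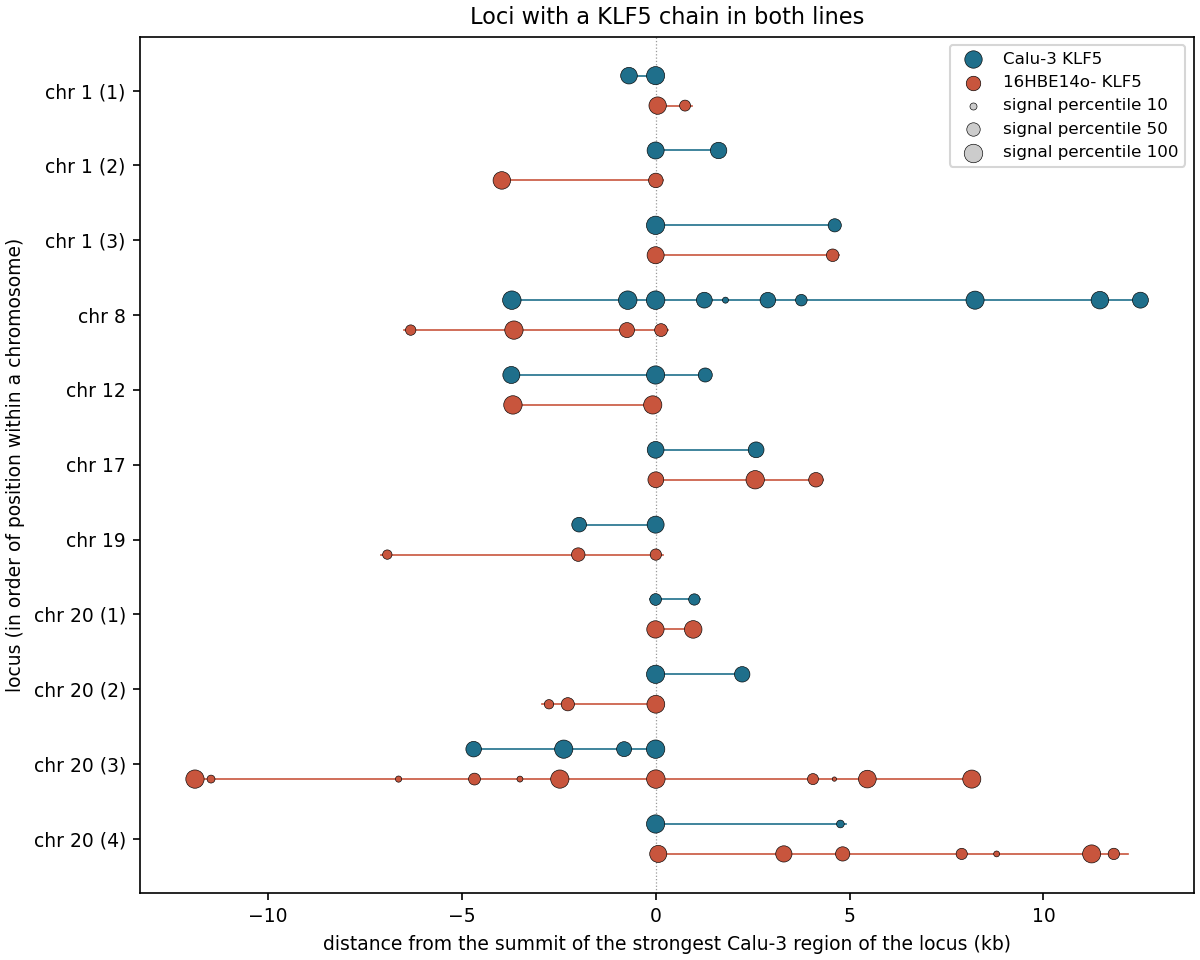
KLF5 regions at the 11 loci with a chain in both lines, by distance of their summits from the summit of the strongest Calu-3 region (x axis, kb), 1 row per locus (y axis); lines are chain spans and point area grows with the signal percentile within each list. The chromosome 8 locus has 10 Calu-3 and 4 16HBE14o- regions and the chromosome 20 locus numbered (3) has 4 and 11, and the largest points coincide at 4 loci.

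Chains that met no chain often met a single region of the other line, and this was more frequent from the side of Calu-3. Within the span of 35 Calu-3 chains (43.2%, 32.2 to 54.7) and 44 16HBE14o- chains (22.4%, 16.8 to 28.9) the other list had 1 or more regions but no chain. No region of the other list lay within the span or 5 kb of it for 35 Calu-3 chains (43.2%, 32.2 to 54.7) and 137 16HBE14o- chains (69.9%, 63.0 to 76.2). The same held for 73.6% of single Calu-3 regions (71.1 to 76.0) and 87.2% of single 16HBE14o- regions (85.8 to 88.5), for which the window was narrower because a chain has the longer span and 2 or more regions. The 16HBE14o- list held 2956 regions and the Calu-3 list 1465. Such shares depend on the length of the other list, so each is given for its own list only.

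**Figure D3:**
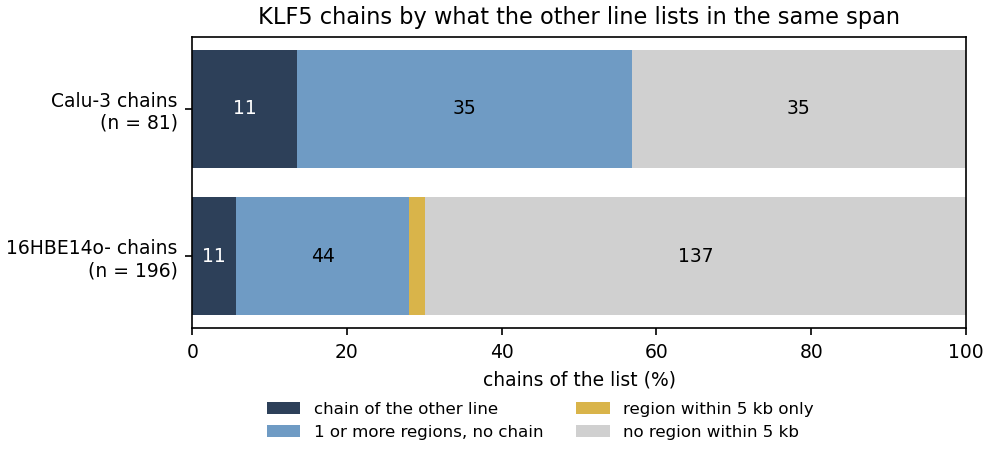
Percent of the KLF5 chains of each line (x axis) by what the other line lists in the same span, with the number of chains written in each segment; rows are Calu-3 (81 chains) and 16HBE14o- (196 chains). The darkest segment is the 11 loci with chains in both, and the grey segment, with no region of the other line within 5 kb, holds 35 and 137 chains.

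Counted by region, overlap between the lines in chains was slightly above that of the whole lists. Of the chained Calu-3 regions, 55 of 195 overlapped a 16HBE14o- region (28.2%, 22.0 to 35.1), where all Calu-3 regions gave 23.6%. Of the chained 16HBE14o- regions, 66 of 438 overlapped a Calu-3 region (15.1%, 11.8 to 18.8), where all gave 11.7%. The Calu-3 interval included the share of the whole list, and the lower bound in 16HBE14o- was just above it. Among chained 16HBE14o- regions the overlap ranged with signal from 0 of 113 in the lowest 25% (exact upper bound 3.21%; taken as 3 counts, a count of 0 allows a share of up to 2.65%) and 7.07% in the next class to 20.5% and 29.7% (22.2 to 38.1) in the upper classes. For single 16HBE14o- regions it was 5.75% in the lowest and 21.3% (18.1 to 24.8) in the highest class. In Calu-3 neither kind of region was the higher in every class. From the lowest to the highest class, chained regions were shared at 9.09%, 26.3%, 18.8% and 43.4% (32.1 to 55.3 in the highest). Single regions were shared at 14.4%, 17.7%, 21.4% and 40.2% (34.5 to 46.1), and the intervals overlapped in every class.

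Both regions of a pair were shared about as often as in neighbouring single regions. Among chains of 2, both regions were shared in 5 of 59 Calu-3 chains (8.47%, 2.81 to 18.7) and 3 of 167 16HBE14o- chains (1.80%, 0.372 to 5.16). Of single regions that follow each other along a chromosome, both were shared in 6.78% of 1180 Calu-3 pairs and 2.07% of 2324 16HBE14o- pairs. Exactly 1 region was shared in 23 (39.0%, 26.5 to 52.6) and 41 (24.6%, 18.2 to 31.8) chains of 2, against 32.4% and 18.4% of the pairs of single regions. The strongest region of a Calu-3 chain was shared in 27 of 81 cases (33.3%, 23.2 to 44.7) and the other members in 28 of 114 (24.6%, 17.0 to 33.5). For 16HBE14o- the values were 38 of 196 (19.4%, 14.1 to 25.6) and 28 of 242 (11.6%, 7.83 to 16.3). In both lists the intervals of strongest and other members overlapped.

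Some chains of 3 or 4 regions were listed in 1 line only. The 16HBE14o- chains with the most regions among those with no Calu-3 region within 5 kb held 4 regions each. On chromosome 14 at 105144328 to 105154633 the strongest of them, at 105149580, was at percentile 96.3 and the others were at 66.8, 43.0 and 67.0. On chromosome 20 at 62689142 to 62698922 percentiles ran from 14.4 to 80.4, and at 49920894 to 49934688 on that chromosome all 4 regions were weak, at 7.27 to 29.9. Chains of 3 regions with 1 dominant region lay on chromosome 20 at 60999771 to 61002860, with percentiles of 68.7, 21.9 and 99.4, and at 49868013 to 49875490, with 14.2, 28.9 and 99.1. A Calu-3 CEBPB peak lay at a region of 1 of these 5 chains, at 61002517, with CEBPB percentile 9.79. Over all 16HBE14o- chains, 66 of 196 had one at a region (33.7%), so no lack is read from these 5.

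The Calu-3 chains of the same kind held 3 regions each. The one on chromosome 4 at 1035254 to 1037802 had percentiles of 51.5, 73.2 and 60.8. On chromosome 7 at 965268 to 967198 they were 92.4, 1.77 and 49.8. On chromosome 11 (1241071 to 1245977) the strongest region was at percentile 72.5, on chromosome 3 (184315650 to 184320655) at 79.9, and on chromosome 10 (47124715 to 47128316) at 70.8. CEBPB peaks lay at 1 region of the chains on chromosomes 4, 10 and 11 and at none of those on chromosomes 3 and 7. Over all Calu-3 chains, 40 of 81 had CEBPB at a region (49.4%).

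Some Calu-3 chains paired strong KLF5 regions with 1 shared site. On chromosome 7 at 577958 to 579605, the region at 577958 (signal 111, percentile 99.7) overlapped a 16HBE14o- region of percentile 88.0, and the region at 579326 (93.7) did not. A chain on chromosome 22 at 30648494 to 30649553 had the same form, its shared region being at 96.4 in Calu-3 and at 93.7 in 16HBE14o-. Neither had a CEBPB peak. On chromosome 20 at 30191812 to 30198779, all 3 regions were strong, at 91.3, 95.9 and 94.8, and all 3 carried CEBPB peaks, at CEBPB percentiles 26.5, 97.5 and 99.5. Only the last of them was shared, with a 16HBE14o- region of percentile 74.5. The chain on chromosome 7 at 985394 to 989556 was led by a region of percentile 99.0, shared at percentile 58.1, and had CEBPB peaks at 2 of its 3 regions. Chains at chromosome 1 (202075479 to 202077671) and chromosome 19 (1652705 to 1658111) likewise had 1 shared region of 3, with CEBPB at 2 and 1 regions. On chromosome 11 at 1254976 to 1258795, both regions were strong (91.4 and 93.4), with neither a 16HBE14o- nor a CEBPB counterpart.

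Of the 6 16HBE14o- chains whose weakest region ranked highest, 4 had 1 shared region of 2. The remaining 2, on chromosome 12 at 52537434 and on chromosome 20 at 34673715, had both regions shared. Over all 16HBE14o- chains, 55 of 196 had at least 1 shared region (28.1%). The 6 were chosen for high signal, and overlap was more frequent at high signal, so no excess is read from them. In the chain on chromosome 14 at 93509774 to 93512696 the region of percentile 99.3 was shared, at percentile 81.0 in Calu-3, and its neighbour of 88.8 was not. On chromosome 20 at 43974251 to 43977313, the shared region was the weaker one, at percentile 95.5 in 16HBE14o- and 94.1 in Calu-3, and the unshared one, at 97.6, carried a CEBPB peak of percentile 79.9. Chromosome 10 at 88730908 to 88734667 likewise had its weaker region (90.7) shared, at 82.7 in Calu-3. So did chromosome 1 at 208352770 to 208357976, where the weaker region (85.2) met a Calu-3 region of percentile 42.6. A chain of 4 regions on chromosome 19 at 13951287 to 13962286, named for its number of regions, had its last region, at 76.8, shared at 88.7. Its weakest region was at percentile 3.86, and it was not among the 6.

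CEBPB lay at a smaller share of chained than of single KLF5 regions in Calu-3. It was profiled in Calu-3 alone and was not used to choose the chains. The CEBPB list was far longer, with 69386 peaks against 1465 Calu-3 and 2956 16HBE14o- KLF5 regions. A CEBPB percentile ranks a peak among these, so a low one marks a weak call. Of the chained Calu-3 regions, 62 of 195 had a CEBPB peak (31.8%, 25.3 to 38.8), where all Calu-3 regions gave 44.1% and single regions 46.0% (43.2 to 48.8). In each of the 4 classes of signal the chained share was the lower one, with 27 of 76 (35.5%, 24.9 to 47.3) against 50.2% (44.3 to 56.1) in the top class, but the intervals overlapped in every class. The share was 30.9% (19.1 to 44.8) in chained regions shared with 16HBE14o- and 32.1% (24.5 to 40.6) in those not shared. Where a CEBPB peak was present, its median percentile in the CEBPB list was 85.4 at chained and 96.7 at single Calu-3 regions. With only the 10% of CEBPB peaks of highest signal, the shares were 14.4% of chained and 31.1% of single regions. No test was made, since regions are not replicates.

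At the chained 16HBE14o- regions a Calu-3 CEBPB peak was found in 83 of 438 cases (18.9%, 15.4 to 22.9), where all 16HBE14o- regions gave 23.0% and single ones 23.7% (22.0 to 25.4). These intervals overlapped. The chained share was the lower one in each class of signal here too, with overlapping intervals, although by little in the middle classes, at 19.2% against 20.9% and 23.9% against 24.3%. Chained 16HBE14o- regions shared with Calu-3 had CEBPB at 31.8% (20.9 to 44.4) and those not shared at 16.7% (13.0 to 20.9). Single 16HBE14o- regions differed in the same direction, at 43.2% (37.3 to 49.2) where shared and 21.2% (19.5 to 23.0) where not, so the contrast was not particular to chains. With the 10% of CEBPB peaks of highest signal, the shares were 3.88% of chained and 6.20% of single 16HBE14o- regions. The median percentile of the CEBPB peaks was 55.6 at chained and 71.0 at single 16HBE14o- regions.

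**Figure D4:**
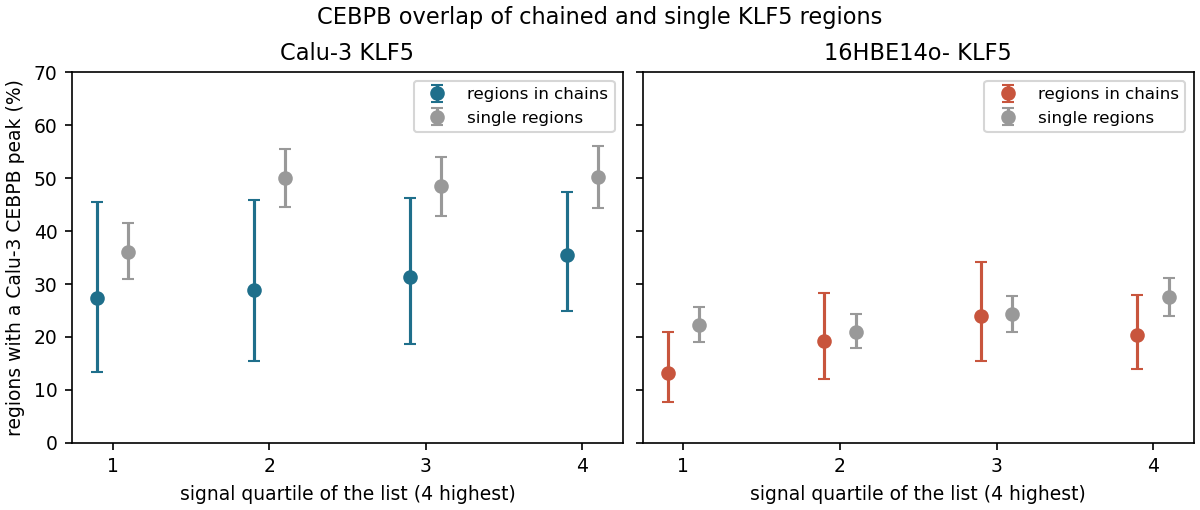
Percent of KLF5 regions with a Calu-3 CEBPB peak (y axis) by signal quartile of the KLF5 list (x axis), for regions in chains (coloured) and single regions (grey) of Calu-3 (left) and 16HBE14o- (right); bars are exact 95% intervals for counting error. Chained regions lie below single ones in all 4 quartiles of both lists, at 35.5% against 50.2% in the highest Calu-3 quartile, and the intervals overlap in every quartile of both.

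Chains of 2 lacked CEBPB at both regions more often than neighbouring single regions did, by a wide margin in Calu-3 and a narrow one in 16HBE14o-. Of the 59 Calu-3 chains of 2, 35 had CEBPB at neither region (59.3%, 45.7 to 71.9), 12 at 1 and 12 at both. Of neighbouring single Calu-3 regions, 30.0% of 1180 pairs had it at neither (27.4 to 32.7). It lay at 1 region in 20.3% of these Calu-3 chains and 46.4% of the Calu-3 pairs, and at both in 20.3% and 23.6%. The Calu-3 shares with CEBPB at both were thus close, and the lower share in chains was mainly that with CEBPB at 1 region. Of the 167 16HBE14o- chains of 2, 114 had it at neither (68.3%, 60.6 to 75.2), 45 at 1 and 8 at both, against neither in 58.9% of 2324 pairs of single regions (56.9 to 60.9), and these intervals met at their ends. CEBPB was at 1 region in 26.9% of these chains and 34.7% of these pairs, and at both in 4.79% and 6.41%. A pair of single regions lies 5 kb or more apart and a chained pair closer, and no test was made. At least 1 region with CEBPB was present in 40 of all 81 Calu-3 chains (49.4%, 38.1 to 60.7) and in 66 of 196 16HBE14o- chains (33.7%, 27.1 to 40.8). The Calu-3 spans held 75 CEBPB peaks, 62 at a KLF5 region and 13 in the gaps between regions, and the latter had a median percentile of 38.3 against 85.4. In 16HBE14o- spans 83 CEBPB peaks lay at regions and 27 in gaps, at medians of 55.6 and 42.9.

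Chains were unevenly spread over the chromosomes, and differently so in both lines. Chromosome length, density of regions and copy number were not taken into account, and causes were not tested. Chromosome 20 held 52 of the 196 16HBE14o- chains (26.5%), with 13.8% of all 16HBE14o- regions. On it 133 of 407 regions were chained (32.7%, 28.1 to 37.5). In Calu-3 the same chromosome held 7 of 81 chains (8.64%) and 6.69% of regions, of which 17 of 98 were chained (17.3%, 10.4 to 26.3). Chromosome 3 held most Calu-3 chains, 13 (16.0%), in proportion to its 15.8% of regions, and 6 16HBE14o- chains (3.06%). On chromosome 19, 26.2% (18.0 to 35.8) of the 103 Calu-3 regions and 21.7% (15.2 to 29.3) of the 143 16HBE14o- regions were chained, in 11 and 14 chains. Chromosome 7 had 9 Calu-3 chains (11.1%, with 6.14% of regions) and 4 16HBE14o- chains (2.04%, with 3.18% of regions). Chromosome 14 had 19 16HBE14o- chains and none in Calu-3, where it held only 33 regions, so that 0 chained regions have an exact upper bound of 10.6% (taken as 3 counts, a count of 0 allows a share of up to 9.09%). Chromosome 11 had 4 Calu-3 chains (4.94%, with 5.87% of regions) and 22 16HBE14o- chains (11.2%, with 7.48% of regions).

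**Figure D5:**
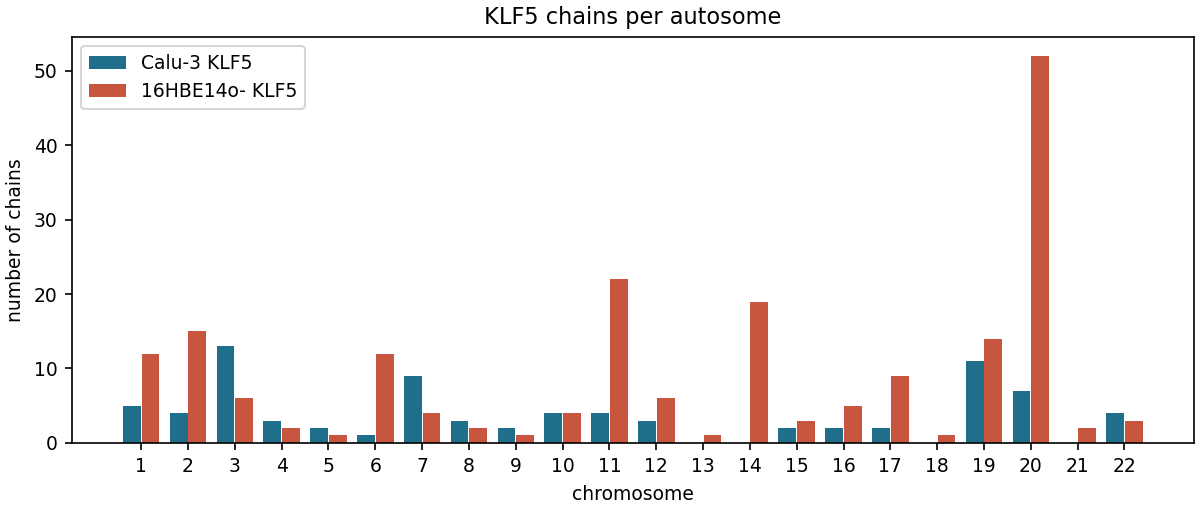
Number of KLF5 chains (y axis) on each autosome (x axis) in Calu-3 and 16HBE14o-. The highest bar is the 52 16HBE14o- chains of chromosome 20, where Calu-3 has 7, and the highest Calu-3 bar is the 13 chains of chromosome 3, where 16HBE14o- has 6.

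Chains gathered further in a few segments of 5 Mb. In 16HBE14o-, chromosome 20 from 60 to 65 Mb held 16 chains, with 51 of its 103 regions chained. Chromosome 11 from 65 to 70 Mb also held 16 chains, all of 2 regions, with 32 of 81 regions chained. Chromosome 20 from 45 to 50 Mb followed with 10 chains. In Calu-3 the segment with the most chains was chromosome 7 from 0 to 5 Mb, where 17 of 27 regions lay in 7 chains. Chromosome 19 from 40 to 45 Mb held 4 Calu-3 and 5 16HBE14o- chains. The segment of chromosome 3 from 190 to 195 Mb, with the 3 chains already described, had 10 of its 27 Calu-3 regions in chains.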

How the data were processed

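The labels' protocols describe sonicated nuclear lysates, immunoprecipitation and Illumina sequencing. Per the series' design text, each peak list was made by the authors from both samples of a group. Coordinates are on hg19, per the file headers. The aligner, peak caller, control and filters are not given in the sources used here. The authors' signal values and scores per peak were deposited without a stated normalization and were used only within a list. The deposited −log10 q-value was used as a filter in alternatives.

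Rows were merged where they overlapped or touched (36 Calu-3 and 249 16HBE14o- regions came from more than 1 row), and a merged region took the highest signal of its rows. Overlap meant at least 1 bp. Shares have exact (Clopper-Pearson) 95% intervals. Pairs of neighbouring single regions were added for comparison after the data had been seen. With 1 list per group no test between groups was possible. Read counts are not part of the lists, so depth is unknown. Merging, chaining and overlap were tested on simulated intervals. Python 3.11.15, numpy 2.4.6, pandas 2.3.3, scipy 1.17.1 and matplotlib 3.10.9 were used.

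Named chains are, per list, the 8 with the most regions, the 6 with the highest weakest region, the 5 with the most regions among those with no region of the other list within 5 kb, and all loci with chains in both lists. The members, gene lists and motifs were chosen with earlier results of these data known. The gene and motif lists were not used, since the reference tables were on another build.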

Additional observations from a re-analysis of the deposited data

How the results depend on the processing

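No paired analysis was possible because each deposited list pools both samples of its group, and for the same reason no replicate could be left out in turn. Of 112 values recomputed for 12 results under 14 alternatives, 76 stayed within the range set for them, 12 of these being identical to the reported value. The range was 1.5 times for a count and the exact 95% interval for a share or median. Chaining limits of 2.5 and 10 kb gave 9.90% and 18.5% of Calu-3 and 10.7% and 21.5% of 16HBE14o- regions in chains, and 7 and 25 chains of each list that met a chain of the other. Chains of 3 or more regions numbered 22 in Calu-3 and 29 in 16HBE14o-, with 5.26% and 3.52% of regions, and met at 2 loci; their median percentile in 16HBE14o- was 42.7. Keeping the upper 50% of each list by signal left 42 Calu-3 and 74 16HBE14o- chains, which met at 6 loci. In 16HBE14o- this left 9.48% of regions chained, at a median percentile of 59.9, and 21.1% of these were shared. With the 16HBE14o- list limited to the number of Calu-3 peaks, its 68 chains held 9.40% of regions at a median percentile of 60.04, and met Calu-3 chains at 7 loci. Sharing was then 20.5% of chained Calu-3 and 29.3% of chained 16HBE14o- regions. Not every listed KLF5 region passed a limit of 0.05 on the q-value, which left 71 of 81 Calu-3 and 146 of 196 16HBE14o- chains in number. Chained regions went from 195 to 167 in Calu-3 and from 438 to 319 in 16HBE14o-. Single regions went from 1270 to 1132 and from 2518 to 2213. The share of 16HBE14o- regions in chains was then 12.6%. Without chromosomes 3 and 20 it was 11.97%, and the lists met at 7 loci. Under the same limit on CEBPB q-values, CEBPB lay at 12.1% of chained 16HBE14o- regions, and the top 10% by signal at 14.4% of chained Calu-3 and 3.88% of chained 16HBE14o- regions. The stricter settings also leave smaller lists, and the causes of these shifts were not tested. The share with CEBPB was lower in chained than in single regions in both lists under every alternative that changed either share, of which there were 9 for Calu-3 and 10 for the other line, with differences (chained minus single) of -12.2 to -19.9 points in Calu-3 and -2.31 to -6.76 points in 16HBE14o-. Leaving out the longest chain of each list was added after the data had been seen and moved none of the 6 values recomputed outside its interval.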

Other observations

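Chains of 1 list sometimes lay near each other. Within 100 kb of another chain were 22 Calu-3 chains, in 10 neighbourhoods, and 41 16HBE14o- chains, in 16. The largest by regions was on chromosome 20 at 60876912 to 61002860, with 4 16HBE14o- chains and 19 regions in 126 kb, of which 4 overlapped a Calu-3 region and 7 a CEBPB peak. On the same chromosome, 62587721 to 62698922 held 4 16HBE14o- chains of 10 regions in all, with neither Calu-3 KLF5 nor CEBPB at any of them. On chromosome 11, 65264863 to 65340227 held 4 16HBE14o- chains of 2 regions each, with CEBPB at 1 region and Calu-3 KLF5 at none. In Calu-3 the largest neighbourhoods were on chromosome 7 at 951635 to 989556, with 3 chains and 8 regions, 1 of them shared, and on chromosome 11 at 1147842 to 1258795, with 3 chains and 7 regions, none of them shared. The distance of 100 kb was chosen after the data had been seen.

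The share of regions in chains followed signal differently in the lists. In Calu-3 it was 9.02% in the lowest and 20.7% in the highest 25% by signal. In 16HBE14o- it was 15.3% in the lowest, 11.9% in the upper middle and 18.7% in the highest class.

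On chromosome X, left out above, 16HBE14o- had 1 chain among 42 merged regions and Calu-3 had none among 8.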
